A study of Mus musculus with 2 samples.

Results

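The 8 genes described here encode transporters that carry organic anions and organic cations through the cells of the kidney's proximal tubule: Slc22a6, Slc22a8, Slc22a7, Slc22a2, Slc22a30, Slc22a12, Slco1a1 and Slc47a1. They were chosen by their symbols, 8 of the 32285 genes listed in each count matrix, and all 8 were found in both. The data were single cell RNA sequencing counts from 2 perfused kidneys of wildtype male C57BL/6J mice aged 19 weeks, and the sample labels do not say whether both came from 1 animal. The ischemia library was made from a left kidney that had 27 minutes of ischemia and was taken 24 hours into reperfusion, and the control library from the contralateral kidney, which was not injured but shared its circulation with an injured one. The question put to these libraries was how the transporters were expressed after ischemia. Each condition was 1 library, so no difference was tested, cells were not used as replicates, and every interval given is an exact 95% interval for counting error only.

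Proximal tubule cells clear drugs, toxins and metabolic waste by moving them from blood to urine. Uptake at the blood side is carried by organic anion transporters, which exchange an anion for an intracellular dicarboxylate such as alpha-ketoglutarate, and by organic cation transporters, which are driven by the membrane potential. Export into the urine is carried by proton exchangers and ATP-driven pumps, while other members of the same families work at the urine side to recover urate and other anions. Loss of tubular secretion is a known feature of acute kidney injury, and the late, straight part of the proximal tubule (S3) is known as the part most sensitive to ischemia.

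Barcodes with at least 200 genes, 500 to 150000 transcripts counted by unique molecular identifier (UMI) and at most 55% mitochondrial UMIs were kept, which left 12586 control and 13116 ischemia cells. The kept cells held 124679362 UMIs in the control kidney and 128733541 in the ischemia library, with medians of 3839 and 2138.5 UMIs a cell. The libraries shared 58 barcodes among kept cells, which is 0.461% of the control and 0.442% of the ischemia cells. Clustering gave 18 clusters, and 16 of them received the name of 1 of 13 cell classes from marker genes that include none of the 8. Proximal tubule (PT)-like cells made up 3 clusters, with 3894 control and 2752 ischemia cells. One of these was named early PT-like from the S1 and S2 markers Slc5a12 and Slc5a2, 1 was named late PT-like from the S3 marker Slc7a13, and the third, shallower one had neither and is called other PT-like. In the control, early and late markers summed to 1040 and 964 CPM in late PT-like cells, against 3345 and 266 CPM in early PT-like cells. The name late PT-like is thus relative to early PT-like cells and does not mean S3 cells alone. The largest cluster, of 10499 cells with a median of 837 UMIs, stayed unnamed, although PT markers were its highest scoring list, and it held 5.53% of the control and 6.32% of the ischemia UMIs of the 8 genes.

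Levels are given in CPM, the usual library-scaled count, computed from the UMIs summed over the cells of a class in 1 library. Positions follow GENCODE M21 on GRCm38, the assembly that the submitters' notes call mm10. Slc22a6 (ENSMUSG00000024650), the classical organic anion transporter OAT1, lies at chr19:8618039-8628299 on the plus strand. Slc22a8 (ENSMUSG00000063796), which encodes OAT3, lies just upstream at chr19:8591254-8611835 on the same strand, with 6203 bases and no annotated gene between them. Slc22a30 (ENSMUSG00000052562, chr19:8335371-8405111, minus strand) belongs to a rodent cluster of related genes on the same chromosome, and Slc22a12 (ENSMUSG00000061742, chr19:6535845-6543032, minus strand) encodes the urate transporter URAT1. Slc22a7 (ENSMUSG00000067144, chr17:46432183-46438457, minus strand) encodes OAT2, and Slc22a2 (ENSMUSG00000040966, chr17:12584132-12628488, plus strand) encodes the organic cation transporter OCT2. Slco1a1 (ENSMUSG00000041698, chr6:141907282-141946962, minus strand) encodes OATP1A1, and Slc47a1 (ENSMUSG00000010122, chr11:61343401-61378345, minus strand) encodes the proton-driven cation exporter MATE1. Slc22a12 overlaps Nrxn2 on the opposite strand, and Slco1a1 overlaps 1 short noncoding gene on its own strand. Of all 50-base stretches in the last 500 bases of their transcripts, 3.04% of those of Slc22a30 also occur in another gene, most in its neighbour Slc22a28, and 0% of those of the other 7 do.

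The promoters of the neighbours Slc22a6 and Slc22a8 are shown because these adjacent genes encode the main basolateral anion exchangers and both stood lower after ischemia. The windows run from 250 bases before to 50 bases after the start of each gene in RefSeq (GRCm38.p6), for Slc22a6 at chr19:8617746-8618045 and for Slc22a8 at chr19:8592932-8593231, both on the plus strand. The Slc22a8 window lies inside the GENCODE span of the gene, which begins further upstream.
Slc22a6: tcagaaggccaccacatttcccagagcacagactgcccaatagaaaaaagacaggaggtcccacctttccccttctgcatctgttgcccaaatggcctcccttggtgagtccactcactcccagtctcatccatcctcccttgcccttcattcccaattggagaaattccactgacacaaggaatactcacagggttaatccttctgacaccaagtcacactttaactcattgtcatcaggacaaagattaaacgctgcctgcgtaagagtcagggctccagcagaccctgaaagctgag
Slc22a8: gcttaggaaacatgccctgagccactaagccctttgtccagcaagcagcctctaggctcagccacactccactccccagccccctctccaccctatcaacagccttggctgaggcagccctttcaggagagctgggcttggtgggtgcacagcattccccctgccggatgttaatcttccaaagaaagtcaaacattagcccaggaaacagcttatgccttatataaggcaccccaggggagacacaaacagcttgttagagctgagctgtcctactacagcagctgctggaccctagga
A sequence bound by HNF4, CAAAGTCCA, searched on both strands, was in 0 of the 6 members that the promoter table holds and in 0.475% of all 32851 promoters, which says only that these letters are not in these windows.

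All 8 genes were proximal tubule genes in these kidneys. PT-like cells held 87.7% (87.5 to 87.9) of the UMIs of the 8 genes in the control library and 87.5% (87.2 to 87.7) in the ischemia library, while they held 57.5% and 52.9% of all UMIs. Among the named classes, the CPM of 7 of the genes was highest in PT-like cells in each library. The exception was the rare Slc22a7, whose CPM was highest in T cell-like cells of the control, on 7 UMIs in 2 cells, and in macrophage-like cells after ischemia, on 3 UMIs. Of the 7, 6 lay in 1 cell, which also held 101 UMIs of PT markers beside 9 of T cell markers. In the other named classes the genes summed were at 6.89% to 31.1% of the PT-like CPM in the control kidney and at 3.92% to 22.6% in the ischemia library. The largest unnamed cluster was higher than these, at 1352 and 863 CPM. There Slco1a1 was at 101% of its PT-like CPM in the control and at 104% in the ischemia library. The classes at the top of this order were shallow ones (B cell-like, T cell-like and endothelial, EC-like), and those at the bottom were deep tubule classes such as thin limb-like and collecting duct principal (CD-PC)-like cells. The 8 PT marker genes stood at 6.10% to 31.0% and 3.62% to 34.0% of their PT-like CPM in the same classes.

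The mixture of the 8 genes in other classes was set beside that in PT-like cells. In thick ascending limb (TAL)-like cells of the control, Slc22a6 made up 27.3% of the UMIs of the 8 genes, against 26.3% in PT-like cells, and Slc22a12 made up 25.5% against 27.0%. Over the 12 other classes, 9 of 96 intervals of a gene's share did not hold the PT-like value in the control and 17 of 96 after ischemia. A clear departure was Slc47a1 in thin limb-like cells, at 27.4% (21.6 to 33.8) against 13.8% in the control and 38.4% (28.8 to 48.7) against 15.6% after ischemia. Slc47a1 was also at 23.4% (17.6 to 30.1) in podocyte-like cells of the control, and Slc22a6 at 34.1% (30.2 to 38.2) in CD-PC-like cells after ischemia against 24.2%. The levels in these classes are given with no statement of whether they are free RNA or expression. In the order of levels below PT-like cells, neighbouring classes mostly had overlapping intervals, and no order is drawn from them. Over the 22 groups of at least 50 cells of a named class in 1 library, genes whose log2(CPM + 1) was among the most like that of the 8 genes summed were Miox (Pearson's r 0.990), Acsm2 (0.987), Cyp4a10 (0.987) and Ugt3a2 (0.987), of 12479 genes. Miox and Acsm2 are among the PT markers that named the clusters, and the groups share 2 libraries, so the values are a description. The 7 members with a value ranged from 0.901 for Slco1a1 to 0.979 for Slc22a12.

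**Figure D1:**
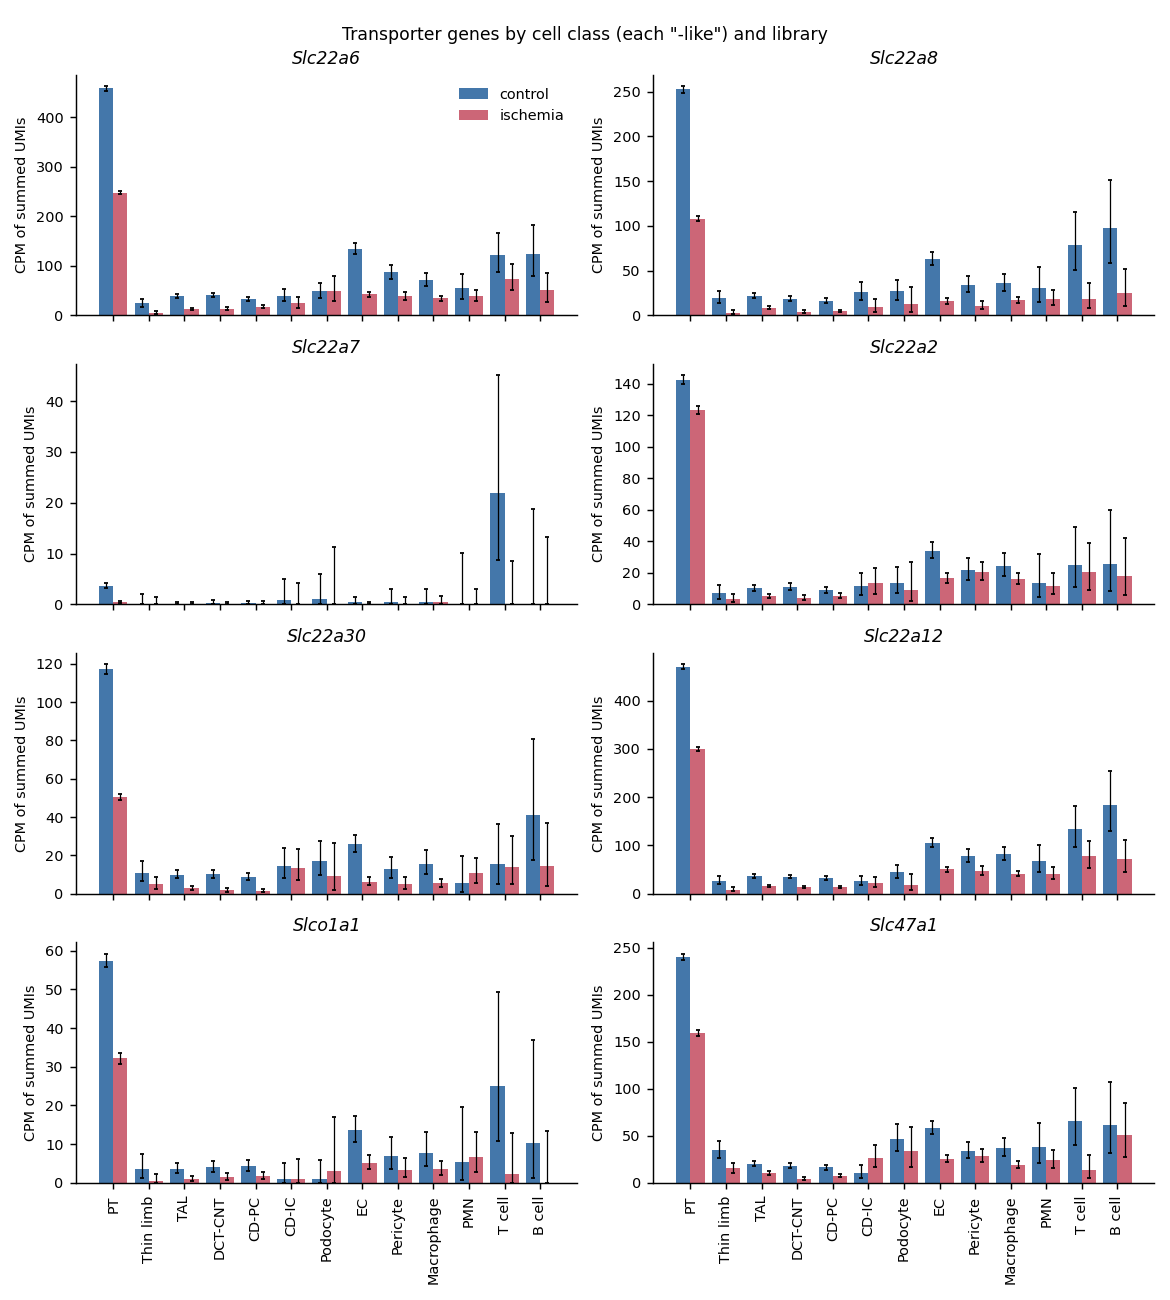
CPM of summed UMIs (vertical axes, linear, one scale a gene) of each transporter gene in the 13 named cell classes, for the control (blue) and ischemia (red) library, with exact 95% Poisson intervals as bars. All genes but Slc22a7 stand highest in PT-like cells, Slc22a6 at 458 CPM in the control kidney and 248 in the ischemia library, and the tall Slc22a7 bar in T cell-like cells rests on 7 UMIs.

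After ischemia every transporter stood at a lower level in PT-like cells than in the control kidney. Summed, the 8 genes were at 1742 CPM in the control kidney and 1022 CPM in the ischemia library, a ratio of 0.587 (0.582 to 0.593). The ratios ranged from 0.130 for Slc22a7 to 0.865 for Slc22a2, with a median log2 ratio of -0.86, against 0.12 over the 13540 genes with at least 50 UMIs in these cells. Slc22a7, Slc22a8 and Slc22a30 were 2-fold lower or more, which is 3 of the 8 genes, against 3.82% of all genes measured in the same cells. No member was 2-fold higher, against 6.98% of all genes. Among the 1127 genes at 100 CPM or more in the control, 5.32% were 2-fold lower, and 2 of the 6 members at that level were. With 1 kidney a condition, a difference between the kidneys other than ischemia cannot be told apart from it.

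Other measures of the PT-like cells moved with the transporters. The 8 PT markers summed to 12477 CPM in the control kidney and 7021 CPM in the ischemia library, and 2 of the 8 were 2-fold lower. Of 7 markers of injured tubule, 6 were 2-fold higher or more, led by Havcr1, the kidney injury molecule KIM-1, at 7.16 and 418 CPM. The median mitochondrial share of a PT-like cell was 24.1% in the control kidney and 20.2% in the ischemia library, and the median depth was 13892 and 18551.5 UMIs. Markers of macrophages in PT-like cells summed to 3.11 and 9.97 CPM, with all 7 detected in both, and those of neutrophils (PMN) to 6.12 and 6.75 CPM. Markers of other tubule classes in PT-like cells were lower too. TAL markers went from 309 to 191 CPM, those of distal and connecting tubule from 170 to 65.9, and CD-PC markers from 45.8 to 17.7. Their median log2 ratios were -0.90, -1.55 and -1.60. Thin limb markers summed to 154 and 287 CPM, but their median log2 ratio was -0.27. Of these 7 markers, 3 were 2-fold lower and 1 was 2-fold higher. The part of each of these in the lower transporter levels was not tested. With CPM of TAL-like cells subtracted the summed ratio was 0.603, and with mitochondrial UMIs left out of the total it was 0.557. TAL-like cells were at 8.06% and 5.57% of the PT-like summed CPM (control, ischemia), while EC-like cells were at 25.1% and 15.8%. Subtracting a class at the higher level was not tried. Clustered without integration, PT-like cells by name were 2135 in the control kidney and 310 in the ischemia library, the summed ratio was 0.862, and Slc22a7 alone was 2-fold lower. That comparison leaves out an unnamed cluster led by Fgb and Havcr1, with 68 control and 1399 ischemia cells, for which PT markers were the highest scoring list. With every cluster of that list taken in, the ratio without integration was 0.588, and the same 3 members were 2-fold lower.

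**Figure D2:**
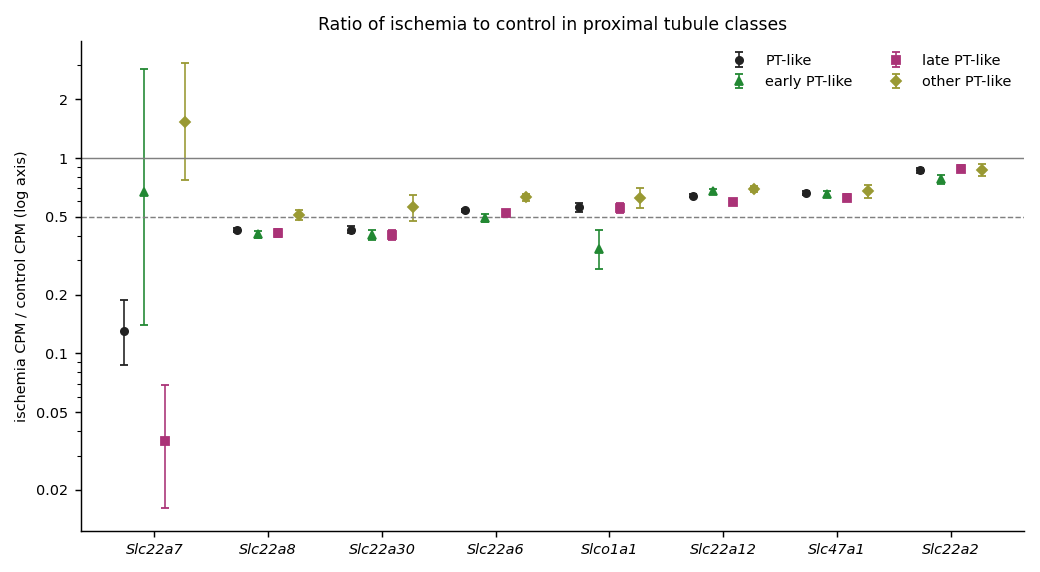
Ratio of ischemia to control CPM (vertical axis, log scale) of each gene in all PT-like cells (black circles) and in the early (green triangles), late (purple squares) and other (olive diamonds) PT-like clusters, with exact 95% intervals. The solid line marks a ratio of 1 and the dashed line a 2-fold lower level. Apart from Slc22a7 in the other PT-like cluster, all points lie below 1, and Slc22a2 lies nearest to it at 0.865 in all PT-like cells.

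The pair of basolateral anion exchangers did not stand at the same ratio. Slc22a6, whose product takes up p-aminohippurate and many drugs from blood, was at 458 CPM (453 to 463) in the control kidney and 248 CPM (244 to 252) in the ischemia library, a ratio of 0.541 (0.531 to 0.551). Slc22a8, whose product takes up anions such as estrone sulfate, was at 253 CPM (249 to 256) and 108 CPM (106 to 111), a ratio of 0.428 (0.416 to 0.440). The interval of Slc22a8 lies wholly below that of Slc22a6, although the genes are neighbours. The order was the same in early PT-like cells, at 0.495 and 0.407, in late PT-like cells, at 0.521 and 0.413, and in other PT-like cells, at 0.629 and 0.512. In the early, late and other PT-like clusters 3.19%, 4.07% and 2.32% of all genes were 2-fold lower, and 4, 3 and 0 of the 8 members were. The 4 in early PT-like cells were Slc22a6, Slc22a8, Slc22a30 and Slco1a1, whose early level lay below that in EC-like cells in each library. The 3 in late PT-like cells were Slc22a8, Slc22a30 and Slc22a7, whose cells lay in different clusters in the libraries. Of the members, 7 had at least 50 UMIs in early and in other PT-like cells and all 8 in late ones.

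Slc22a7, an anion transporter known from the last part of the proximal tubule, was rare and had the lowest ratio. It was at 3.72 CPM (3.29 to 4.20), from 267 UMIs, in control PT-like cells and at 0.484 CPM (0.333 to 0.680), from 33 UMIs, in ischemia PT-like cells, a ratio of 0.130 (0.0877 to 0.187). Most of the difference lay in a few cells. Of the 267 control UMIs, 185 (69.3%) lay in a PT sub-cluster of 33 cells, 17 from the control and 16 from the ischemia library, led by Cyp7b1, an oxysterol hydroxylase and S3 marker, and by Napsa and Serpina1f. In its control cells Slc22a7 was found in 14 of 17 cells, with up to 24 UMIs in 1 cell, while in its ischemia cells it was found in 5, with up to 3. The cells of this sub-cluster lay in different PT-like clusters in the libraries: 13 of the 17 control cells were late PT-like and 4 other PT-like, while all 16 ischemia cells were other PT-like. The ischemia cells were also shallow, with a median of 2730 UMIs against 26067, and had a median mitochondrial share of 32.8% against 18.9%, and the part of either in the result was not tested. Within the sub-cluster, whose edge is not exact, Slc22a7 was at 377 CPM (324 to 435) and 166 CPM (71.6 to 327), a ratio of 0.440 (0.187 to 0.886). The sub-cluster held 0.394% of the control UMIs and 0.0375% of the ischemia UMIs. The values of Slc22a7 in single PT-like clusters therefore compare different cells: 11.9 and 0.425 CPM in late PT-like cells (ratio 0.0356, 0.0161 to 0.0687), 1.24 and 1.90 CPM in other PT-like cells (ratio 1.53, 0.768 to 3.07), and 0.163 and 0.110 CPM in early PT-like cells (ratio 0.674, 0.140 to 2.84). With the sub-cluster left out, late PT-like cells held 59 control and 9 ischemia UMIs (2.97 and 0.425 CPM) and other PT-like cells 17 and 12 (1.17 and 1.14 CPM). As the mean of each cell's CPM, which gives shallow cells the same weight as deep ones, the ratio of Slc22a7 in PT-like cells was 0.532, and with cells thinned to 1000 UMIs it was 0.345.

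Slc22a30, from the rodent cluster of organic anion transporter genes, was at 117 CPM (115 to 120) in control and 50.4 CPM (48.7 to 52.1) in ischemia PT-like cells, a ratio of 0.430 (0.413 to 0.448). Its level was 0.405 times the control in early and 0.403 times in late PT-like cells, so that it was 2-fold lower in both. Slc22a12, whose product recovers urate from the urine in exchange for other anions, was at 470 CPM (465 to 475) and 301 CPM (297 to 305), a ratio of 0.640 (0.629 to 0.651). Neither of its segment ratios, 0.677 in early and 0.598 in late PT-like cells, reached a 2-fold difference. Slco1a1, which carries bile acids and conjugated steroids at the brush border, was at 57.4 CPM (55.7 to 59.2) and 32.1 CPM (30.8 to 33.5), a ratio of 0.559 (0.531 to 0.589). It was the member, beside Slc22a7, whose early and late ratios lay furthest apart, at 0.343 (0.272 to 0.429) in early and 0.555 (0.522 to 0.590) in late PT-like cells. The early value rests on 307 and 104 UMIs, at 8.33 and 2.86 CPM, beside 3.69 and 1.11 CPM in TAL-like cells. As a share of the Slco1a1 CPM of PT-like cells, early PT-like cells (14.5% and 8.89%) lay below EC-like cells (23.8% and 16.3%).

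Of the pair of cation transporters, Slc22a2 had the ratio nearest to 1 of all 8 genes in PT-like cells. In PT-like cells by name without integration, Slc22a2 (0.901), Slc22a12 (0.901) and Slc47a1 (0.898) stood at nearly the same ratio. With every cluster whose highest scoring list was PT taken in, Slc22a2 again had the highest ratio without integration, at 0.863. Slc22a2, the basolateral cation uptake transporter, was at 143 CPM (140 to 145) in control and 123 CPM (121 to 126) in ischemia PT-like cells, a ratio of 0.865 (0.840 to 0.890). It was at 0.778 (0.737 to 0.821) of the control in early and at 0.884 in late PT-like cells. Slc47a1, which passes these cations on into the urine in exchange for protons, was at 240 CPM (236 to 244) and 159 CPM (156 to 162), a ratio of 0.664 (0.648 to 0.680). Its ratio was 0.656 in early and 0.626 in late PT-like cells, and its interval over all PT-like cells overlapped that of Slc22a12. The intervals of Slc22a2 and Slc47a1 did not overlap each other in any of the 3 PT-like clusters, and Slc22a2 had the highest ratio of the 8 in late PT-like cells.

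Counted over all kept cells, which does not depend on how the cells were clustered, Slc22a7 (0.152), Slc22a8 (0.396) and Slc22a30 (0.397) were again the 3 members 2-fold lower, against 4.13% of 17061 genes. Slc22a6 lay just outside this limit, at 305 CPM in the control kidney and 152 CPM in the ischemia library, a ratio of 0.500 (0.492 to 0.509). The genes summed were at 1142 and 619 CPM, a ratio of 0.542 (0.537 to 0.547). These sums also depend on the mix of cells, and PT-like cells held 57.5% of all control and 52.9% of all ischemia UMIs. PT-like cells also held 87.7% and 87.5% of the UMIs of the 8 genes, so the values are not independent of those above. In the largest unnamed cluster the summed ratio was 0.638 (0.616 to 0.661).

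Along the proximal tubule all 8 genes were higher in late than in early PT-like cells in each library, with gradients that ranged from steep to shallow. The share of all genes higher in late than in early PT-like cells was not computed, so this count only describes the members. In the control library Slco1a1 was at 8.33 CPM in early and 142 CPM in late cells, a late to early ratio of 17.1 (15.2 to 19.2). Its early level lay below that in EC-like cells. Slc22a6 was at 160 and 973 CPM, a ratio of 6.09 (5.91 to 6.27). Slc22a7 was at 0.163 and 11.9 CPM, a ratio of 73.3 (33.2 to 202) that rests on 6 early UMIs. Slc22a2, at 81.9 and 260 CPM, and Slc22a12, at 263 and 793 CPM, had ratios of 3.17 (3.03 to 3.32) and 3.01 (2.94 to 3.09). The gradient was shallow for Slc22a8, at 204 and 342 CPM (1.67), for Slc22a30, at 113 and 180 CPM (1.59), and for Slc47a1, at 246 and 301 CPM (1.22). With a minimum of 1000 UMIs a cell the ratios of Slco1a1 were 41.2 in the control kidney and 85.1 after ischemia, and that of Slc22a30 was 2.45 and 2.33, so its place among the shallow gradients depends on that limit. The 8 genes were not used in clustering, but cells were divided by genes that vary along the tubule, so these gradients are a description. In control cells of the Cyp7b1 sub-cluster Slc22a6 was at 14.7% of its PT-like CPM (33 UMIs), against 34.9% in early PT-like cells. Slc22a8 was at 4.03% (5 UMIs) in the sub-cluster, against 80.7% in early PT-like cells, and the other members were at 107% or more. Late markers summed to 4119 CPM in these cells, against 964 CPM in late PT-like cells of the control. Neither Slc22a6 nor Slc22a8 was thus high in all cells with S3 markers, and both lay below their early PT-like level in the sub-cluster.

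In the ischemia library the gradients ran the same way, with a few differences in size. Slc22a6 was at 79.0 and 507 CPM in early and late cells (6.42, 6.16 to 6.69), Slco1a1 at 2.86 and 78.9 CPM (27.6, 22.6 to 34.0) and Slc22a2 at 63.7 and 230 CPM (3.61, 3.43 to 3.79). The intervals of Slco1a1 and Slc22a2 lay above those of the control, and that of Slc22a6 overlapped it. For Slco1a1 the early level again lay below that in EC-like cells. The ratio was lower than in the control for Slc22a12, at 178 and 474 CPM (2.66, 2.58 to 2.75). It was near the control value for Slc22a8 (1.70), Slc22a30 (1.58) and Slc47a1 (1.17), whose intervals overlapped those of the control. Slc22a7 was at 0.110 and 0.425 CPM, with a ratio of 3.87 (1.08 to 17.2). Late PT-like cells held 42.9% of the control and 45.0% of the ischemia UMIs of the 8 genes from 16.3% and 16.5% of all UMIs.

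**Figure D3:**
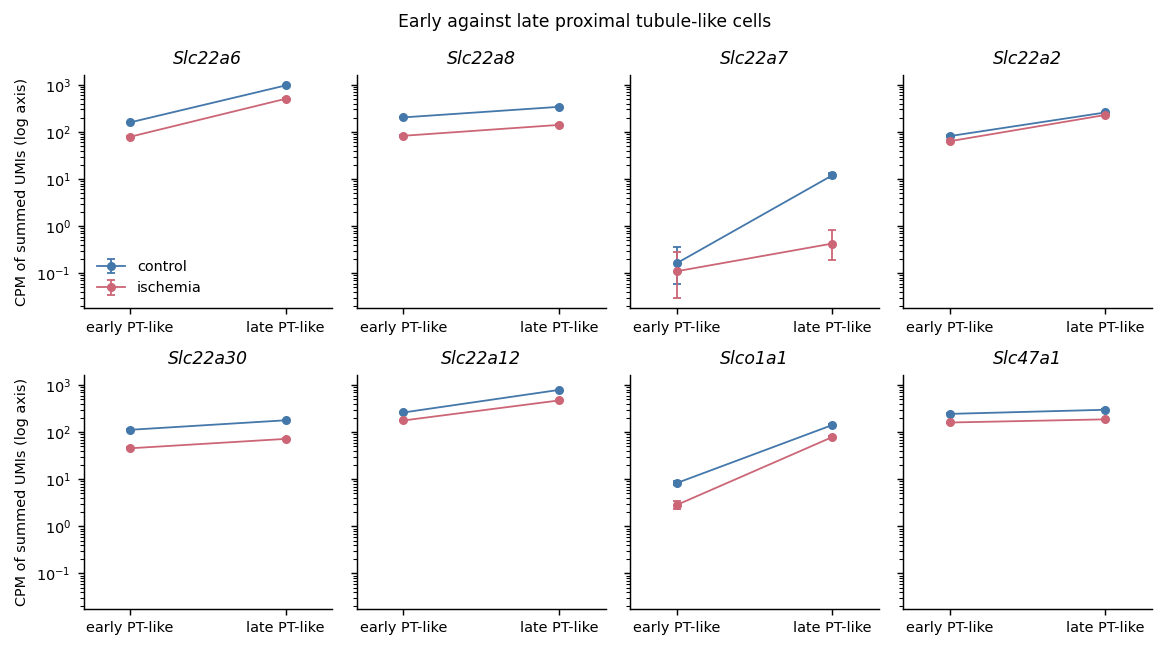
CPM of summed UMIs (vertical axis, log scale, shared by all panels) of each gene in early and late PT-like cells of the control (blue) and ischemia (red) library, with exact 95% Poisson intervals. Lines join the 2 classes of 1 library, and they differ most in slope for Slc22a7, which was at 11.9 CPM in control late PT-like cells and at 0.425 CPM in ischemia ones.

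The lower sums went with fewer cells in which a transcript was found at equal depth. At 1000 UMIs a cell that expresses a gene at these levels can hold no UMI of it. The shares therefore follow in large part from the mean levels, and do not show how many cells express a gene. With each cell thinned at random to 1000 UMIs, which left out 141 control and 36 ischemia PT-like cells, Slc22a8 was found in 21.0% (19.7 to 22.3) of control and 9.28% (8.21 to 10.4) of ischemia PT-like cells. Slc22a6 was found in 30.3% (28.8 to 31.8) and 19.8% (18.3 to 21.4), and Slc22a12 in 34.0% (32.5 to 35.5) and 24.8% (23.2 to 26.5). The shares were 10.0% and 5.82% for Slc22a30, 5.20% and 2.84% for Slco1a1 and 19.5% and 16.3% for Slc47a1. Slc22a2 had overlapping intervals, at 12.2% (11.1 to 13.2) and 10.9% (9.79 to 12.2), and Slc22a7 was found in 8 control and 2 ischemia cells. In TAL-like cells no gene was found in more than 3.64% of control or 2.26% of ischemia cells, at median depths of 19983 and 24673 UMIs before thinning. In EC-like cells the shares were higher, up to 12.2% for Slc22a6 and 9.95% for Slc22a12 in the control kidney and 6.12% and 5.92% after ischemia, at median depths of 3797.5 and 4279 UMIs. Slco1a1 was at 2.84% in ischemia PT-like cells, against 0.714% (0.288 to 1.47) in EC-like cells of the same library. In control EC-like cells it was at 2.26%, near that 2.84%, and no change between the libraries is read from it. Unthinned, 75.2% of control and 63.8% of ischemia PT-like cells held a UMI of Slc22a8, and 77.2% and 77.3% one of Slc47a1.

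None of the 8 genes was found in 28.6% (27.2 to 30.1) of thinned control and 41.9% (40.0 to 43.8) of thinned ischemia PT-like cells. At least 2 of them were found together in 39.1% (37.6 to 40.7) and 23.2% (21.7 to 24.9). Such shares too follow in large part from the mean levels. In late PT-like cells the shares with at least 2 were 70.6% and 44.9%, and in TAL-like cells 1.21% and 0.617%. Unthinned, a late PT-like cell held a median of 6 of the 8 genes in each library, at median depths of 30960 and 43993.5 UMIs.

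**Figure D4:**
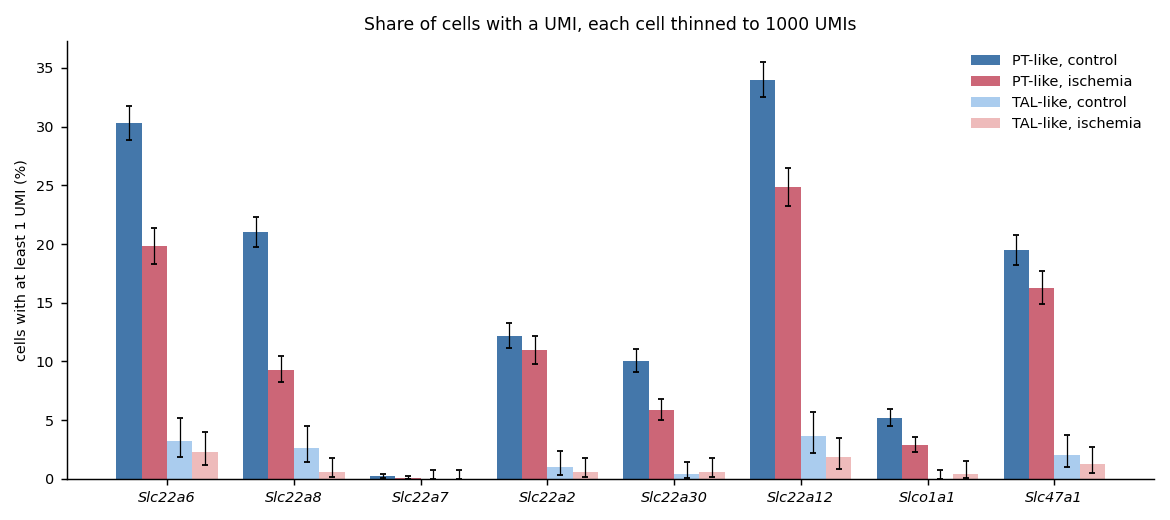
Share of cells with at least 1 UMI of each gene (vertical axis, percent) after thinning every cell to 1000 UMIs, for PT-like cells (dark bars) and TAL-like cells (pale bars) of the control (blue) and ischemia (red) library, with exact Clopper-Pearson 95% intervals. The PT-like bars are lower in the ischemia library, from 21.0% to 9.28% for Slc22a8, and the TAL-like bars reach no higher than 3.64%.

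Within the ischemia library, cells with and without a transcript of the injury gene Havcr1 were set side by side at equal depth. Of 2716 thinned PT-like cells, 620 held a Havcr1 UMI (22.8%), against 20 of 3753 in the control. Before thinning, Havcr1 was at 418 CPM in PT-like and 783 CPM in late PT-like cells of the ischemia library. At these levels a thinned cell that expresses Havcr1 can hold no UMI of it. The cells without a Havcr1 UMI can thus include expressing cells. In the same library Havcr1 was at 34.5 CPM in TAL-like, 98.9 in EC-like and 112 in T cell-like cells, against 246 in early PT-like cells. Positive cells, mainly early ones, can therefore include cells that do not express it. The split does not separate injured from uninjured cells. The transporters summed were at 1192 CPM in Havcr1-positive and 1042 CPM in the other cells, a ratio of 1.14 (1.05 to 1.24), so that the sum was not lower in Havcr1-positive cells as a whole. Positive cells were 220 of 1231 early and 214 of 510 late PT-like cells. Among late PT-like cells the sum was lower in positive cells, at 1542 against 2061 CPM (0.748, 0.652 to 0.857). The members with intervals below 1 there were Slc22a6 (0.677, 0.520 to 0.875), Slc22a8 (0.585, 0.338 to 0.981) and Slc22a12 (0.699, 0.537 to 0.905). Other values went the opposite way. Over all PT-like cells Slco1a1 was at 2.65 (1.66 to 4.18) and Slc22a2 at 1.33 (1.03 to 1.70). Slc47a1 was at 1.37 (1.05 to 1.78) in early PT-like cells and the sum at 1.17 (1.005 to 1.36) in other PT-like cells. Late PT-like cells were 214 of the 620 positive but 296 of the 2096 other cells. The ratios over all PT-like cells, that of the sum included, therefore also hold this difference in mix. Within each single cluster the intervals of Slco1a1 and Slc22a2 held 1, with late PT-like values of 1.44 (0.790 to 2.63) and 0.916 (0.625 to 1.33). Among early PT-like cells the ratio of the sums was 1.11 (0.943 to 1.31), and Havcr1-positive cells there were shallower before thinning, with a median of 17837.5 against 32411 UMIs.

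Of 37 other genes of organic ion transport, 34 had at least 50 UMIs in PT-like cells, and 8 of these were 2-fold lower and 0 were 2-fold higher, against 3.82% and 6.98% of all genes in the same cells. Their median log2 ratio was -0.39, against 0.12 over all genes. Among uptake transporters, 11 of 16 had intervals below 1 and 2 had intervals above 1. For this and the lists below, the share of all genes with such intervals was not computed, so these counts only describe the lists. Slc22a19 (OAT5, ratio 0.115) and Slc22a13 (OAT10, 0.137) stood lowest and, like Slc22a7, had much of their control PT-like UMIs in the Cyp7b1 sub-cluster, 54.1% and 62.0%. Slc22a28 (0.363, 0.351 to 0.376) and Slc22a29 (0.432, 0.380 to 0.490), which lie near Slc22a30 on chromosome 19, were 2-fold lower as it was. Slc22a5, the carnitine transporter OCTN2, was at 91.7 and 51.0 CPM (0.557). Slc22a18 (0.686), Slc22a23 (0.630) and Slco1a6 (0.798) had intervals below 1, the interval of Slc22a4 held 1 (0.985, 0.914 to 1.06), and those of Slco3a1 (1.21) and Slco2a1 (1.28) lay above it.

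The list of efflux and urate transporters, which also holds the drug pumps Abcb1a and Abcb1b and the urate carrier Slc2a9, went both ways. None of its 9 measured members was 2-fold lower, and their median log2 ratio was -0.06, against -0.60 for the 16 uptake transporters. Abcg2, which exports urate, was at 465 and 448 CPM (0.962, 0.948 to 0.978). Slc17a1, a phosphate and urate transporter, was at 289 and 285 CPM (0.986, 0.967 to 1.01), and Abcc4, which exports organic anions, at 61.7 and 59.3 CPM (0.961, with 1 inside its interval). Abcc2 (0.707), Slc17a3 (0.830) and Slc2a9 (0.749) had intervals below 1, and Abcb1a (1.31) and Abcb1b (1.22) had intervals above it. The difference between the lists was not tested, and neither list holds the 8 members. Among those, the exporter gene Slc47a1 (0.664) and the urate transporter gene Slc22a12 (0.640) stood below the uptake gene Slc22a2 (0.865). They stood above the uptake genes Slc22a6 (0.541) and Slc22a8 (0.428).

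The sodium dicarboxylate cotransporters, which supply the counter-ion of the organic anion exchangers, were 2-fold lower. Slc13a3, at the blood side, was at 230 and 102 CPM (0.443, 0.431 to 0.456), close to Slc22a8, and Slc13a2, which takes up citrate from the urine, at 19.2 and 9.13 CPM (0.474, 0.431 to 0.522). Slc13a1, a member of the same family that carries sulfate, was higher, at 1554 and 2573 CPM (1.66, 1.64 to 1.67). Of the scaffold genes for brush border transporters, Pdzk1 was at 442 and 292 CPM (0.661) and Slc9a3r1 at 126 and 163 CPM (1.29). All 4 transcription factor genes of the list had intervals below 1, a count with no share of all genes beside it. None was 2-fold lower, with Hnf4a at 187 and 132 CPM (0.704) and Hnf4g at a ratio of 0.777.

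**Figure D5:**
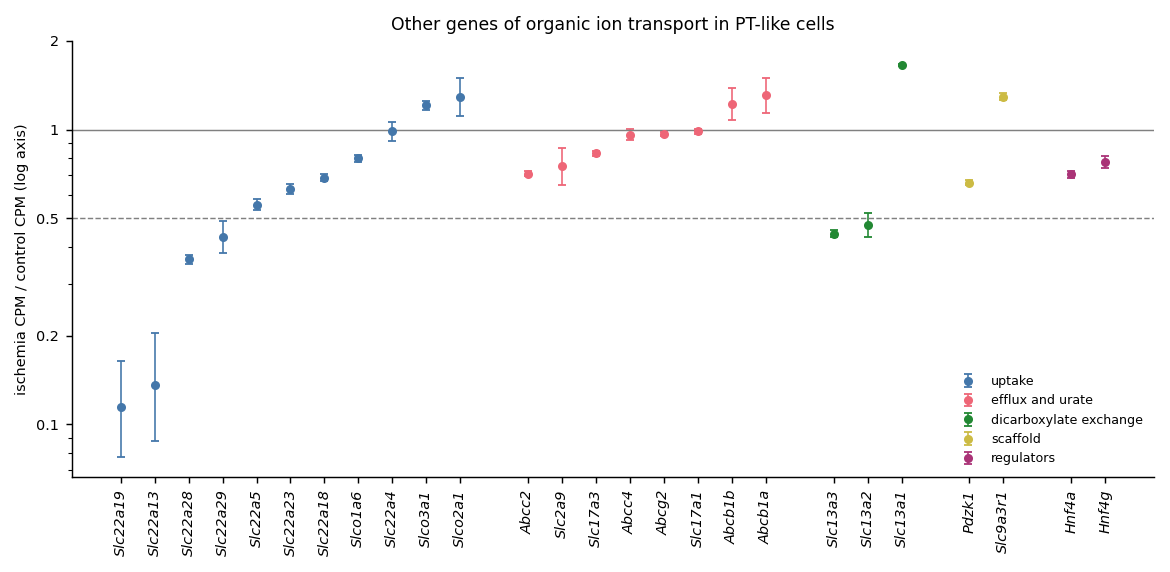
Ratio of ischemia to control CPM (vertical axis, log scale) in PT-like cells of 26 other genes of organic ion transport with at least 200 UMIs there, grouped by role, with exact 95% intervals. The solid line marks 1 and the dashed line a 2-fold lower level. Uptake genes reach down to 0.115 (Slc22a19), efflux genes lie between 0.707 and 1.31, and Slc13a1 stands highest at 1.66.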

How the data were processed

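Single cell suspensions of 2 kidneys were run on the 10x Genomics 3' platform, and the authors deposited 1 matrix of UMI counts per gene and barcode for each kidney, not normalized. The submitters' notes name Cell Ranger 7.0.0 and mm10, while the annotation release and whether intron reads were counted are not given in the sources used here. The 3' reads keep strand. Depth was 142686238 UMIs in the control kidney and 142959737 in the ischemia library, over 15110 and 15257 barcodes. From the deposited counts, kept cells were log-normalized (scale factor 10000), joined by anchor-based integration of 2000 variable genes and clustered on 30 components at resolution 0.3 (seed 42) with Seurat 5.3.0 in R 4.3.3. The 45 genes of the member and transport lists were left out of the variable genes. A cluster took the name of its highest scoring marker list if at least 3 markers had 10 UMIs or more and at least 1 marker, and more than of any other list, was among its top 10 genes by fold. Scrublet (scanpy 1.11.5) called 0 doublets in either library, which does not show that there were none, and no cells were removed for it. Sums, exact Poisson, conditional and Clopper-Pearson intervals and thinning used Python 3.11.15 with scipy 1.17.1, and were tested on simulated data.

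Both libraries come from single kidneys, so intervals cover counting error only and a limit of 3 counts applies to genes at 0. Genes named are the 8 members, those of the transport list with at least 200 UMIs in PT-like cells, Havcr1, and the 5 genes most alike across classes. Some results of these lists are not reported here. Cyp7b1 and the other leading genes of the sub-cluster were named after their values were seen. The members and the lists were chosen with earlier results of these data known. Of the 32285 gene IDs, 32158 matched GENCODE M21. Alternatives for the filters, the clustering, the doublets and the scaling are given at the end.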

Additional observations from a re-analysis of the deposited data

Results flagged for a closer look

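Slc22a7 was counted more often in the ischemia than in the control library among barcodes that the filter on cells removed, which no comparison above used. It had 7 UMIs (0.389 CPM) in the 2524 removed control barcodes and 26 UMIs (1.83 CPM) in the 2141 removed ischemia barcodes, a ratio of 4.70 (1.99 to 12.8). The other 7 members had ratios from 0.329 to 0.766 there, and the 8 genes summed had a ratio of 0.528. The direction of Slc22a7 in removed barcodes is thus opposite to that in PT-like cells, and the cause was not tested. How many barcodes held the 26 ischemia UMIs is not given here. Among kept control cells up to 24 Slc22a7 UMIs lay in 1 cell. Its UMIs can therefore clump, and the interval of 1.99 to 12.8, for counting error only, can be too narrow.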

How the results depend on the processing

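All 8 members stood below 1 in PT-like cells under each of the 14 alternatives that gave a value, and Slc22a8 and Slc22a7 were each 2-fold lower in 13 of them and Slc22a30 in 12. The count of members 2-fold lower, 3 here, was 1 without integration, where PT-like cells were 310 in the ischemia library and Slc22a7 alone passed, and 3 or 4 otherwise. The members behind a count of 3 differed: with cells thinned Slco1a1 (0.472) took the place of Slc22a30 (0.565), and as the mean of each cell's CPM that of Slc22a7 (0.532). Slc22a7 ranged from 0.0252 without integration to that value. The summed ratio of 0.587 was 0.565 with a limit of 25% mitochondrial UMIs, 0.572 with a minimum of 1000 UMIs, 0.862 without integration, 0.579 with a gate on PT markers, 0.615 as the mean of each cell's CPM, 0.557 outside mitochondrial genes, 0.625 with cells thinned and, chosen after seeing the data, 0.603 with TAL-like CPM subtracted. Without integration but with all clusters whose highest scoring list was PT, also chosen after seeing the data, it was 0.588. Over all kept cells 5 members were 2-fold lower with the limit of 25% and 5 outside mitochondrial genes, since Slc22a6 and Slco1a1 crossed the limit. The share of all genes 2-fold lower was computed only under the main settings. The counts under alternatives, in PT-like and in all kept cells, thus have no such share beside them. The share of the members' UMIs in PT-like cells was 83.9% and 86.1% (control, ischemia) with the limit of 25%, 73.5% and 77.7% with 1000 UMIs, 69.1% and 17.2% without integration, and 70.8% and 73.3% at resolution 0.6. Scrublet called 0 cells, so leaving out its calls gave no value, and with the limit of 25% no cluster was named late PT-like. No paired analysis was possible because each condition is 1 library, and this also limits every value above, whatever the depth.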
